A study of Mus musculus with 12 samples.

Results

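The isolated H4K20me3 domains are the listed domains of mouse chromosomes 1 to 19 that stand at least 200 kb away from the neighbouring domain on either side. They were selected on the positions in the list alone, that is, on a start at or beyond 3 Mb and on both gaps, and 746 of 25730 autosomal domains from 3 Mb on met the rule (2.90%), out of 28210 domains in the whole list. A domain lacking a neighbour on one side was not counted. The list came from H4K20me3 ChIP-seq of the mouse embryonic stem cell line dTKO, with the genotype Suv39h1fl/fl; Suv39h2-/-; Setdb1fl/fl, which all groups share. Cells were collected at 0, 12, 24 and 48 h of auxin (100 μg/ml) and dTAG13 (0.5 μM), with 3 replicates per time and 12 libraries, and the series asks how the mark is lost when H3K9 methyltransferases are removed. The list gives a position for each domain but no signal and no library, so nothing below compares times, and neither the replicate error nor the depth behind a domain is known.

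H4K20me3 is laid down on histone H4 mainly by the enzymes Kmt5b and Kmt5c, which are brought to chromatin by HP1 proteins bound to H3K9me3. In embryonic stem cells the mark is best known at pericentromeric repeats and at endogenous retroviruses silenced by Setdb1. Broad marks of this kind usually appear in clusters of neighbouring blocks, and the domains described here are those that stand alone.

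Among the isolated domains, 16 held an annotated transcription start, and the promoters of 6 protein-coding genes with such a start are shown as examples. No noncoding gene with such a start is shown. Promoters run from 250 bases before to 50 bases after the start, 5′ to 3′ on the gene's strand, from RefSeq on GRCm38.p6, the mm10 build. Capitals mark every CG dinucleotide. Fkbp6 (chr5:135349864-135350163, minus strand; one of 2 listed starts) and Sgo2a (chr1:57985090-57985389, plus strand) act in the germline, Fkbp6 in the piRNA pathway and Sgo2a in protecting cohesion in meiosis. Hsbp1 (chr8:119344288-119344587, plus strand) encodes a heat shock factor binding protein and Eef1a1 (chr9:78481675-78481974, minus strand) a translation elongation factor, and both are widely expressed. Slc22a13 (chr9:119209056-119209355, minus strand) encodes an organic anion transporter and Defb48 (chr14:62984461-62984760, minus strand) a beta-defensin.
Fkbp6: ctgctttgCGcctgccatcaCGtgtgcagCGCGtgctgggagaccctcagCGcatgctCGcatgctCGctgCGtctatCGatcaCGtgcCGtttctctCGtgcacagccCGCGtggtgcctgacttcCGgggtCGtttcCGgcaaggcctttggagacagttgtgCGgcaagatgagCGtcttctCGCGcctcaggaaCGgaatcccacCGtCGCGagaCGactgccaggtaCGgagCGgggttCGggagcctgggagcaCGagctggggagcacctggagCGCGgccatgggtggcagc
Sgo2a: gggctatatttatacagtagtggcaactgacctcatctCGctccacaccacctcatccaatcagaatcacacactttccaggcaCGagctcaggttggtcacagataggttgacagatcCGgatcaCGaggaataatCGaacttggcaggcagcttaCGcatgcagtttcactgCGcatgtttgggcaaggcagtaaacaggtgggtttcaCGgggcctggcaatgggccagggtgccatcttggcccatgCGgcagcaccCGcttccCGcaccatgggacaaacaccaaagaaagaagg
Hsbp1: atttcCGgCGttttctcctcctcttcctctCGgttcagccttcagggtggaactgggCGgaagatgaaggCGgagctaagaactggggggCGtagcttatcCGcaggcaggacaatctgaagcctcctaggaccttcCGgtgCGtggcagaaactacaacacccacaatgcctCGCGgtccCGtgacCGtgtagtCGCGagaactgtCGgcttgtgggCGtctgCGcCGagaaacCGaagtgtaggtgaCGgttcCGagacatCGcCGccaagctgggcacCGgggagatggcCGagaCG
Eef1a1: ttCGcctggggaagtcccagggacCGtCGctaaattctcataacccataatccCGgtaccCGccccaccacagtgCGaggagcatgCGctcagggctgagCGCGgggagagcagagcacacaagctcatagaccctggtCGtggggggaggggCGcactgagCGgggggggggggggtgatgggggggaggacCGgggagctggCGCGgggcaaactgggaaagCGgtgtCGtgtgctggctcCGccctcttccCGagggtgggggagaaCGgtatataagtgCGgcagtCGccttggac
Slc22a13: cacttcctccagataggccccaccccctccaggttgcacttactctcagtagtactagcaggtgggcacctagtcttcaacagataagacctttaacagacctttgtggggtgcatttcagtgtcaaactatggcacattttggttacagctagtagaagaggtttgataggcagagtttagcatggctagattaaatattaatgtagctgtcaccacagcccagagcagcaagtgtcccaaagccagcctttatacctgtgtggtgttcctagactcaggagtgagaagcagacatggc
Defb48: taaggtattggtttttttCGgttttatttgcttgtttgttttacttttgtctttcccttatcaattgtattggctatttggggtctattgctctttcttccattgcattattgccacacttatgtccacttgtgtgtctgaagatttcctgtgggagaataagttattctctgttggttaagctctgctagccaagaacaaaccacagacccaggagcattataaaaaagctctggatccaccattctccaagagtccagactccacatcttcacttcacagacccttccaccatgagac

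These 6 promoters, picked as examples, differed widely in CG content. The windows held 32 CG dinucleotides at Fkbp6, 27 at Hsbp1, 22 at Eef1a1, 11 at Sgo2a, 1 at Defb48 and 0 at Slc22a13. The window of the other listed Fkbp6 start, not shown, held 21. Over all 17 promoters whose start lay in an isolated domain, from 16 genes, the median was 7 (quartiles 1 and 21), and over all 31396 autosomal promoters in the table it was also 7 (quartiles 3 and 21). For the 491 promoters with a start in another domain the median was 5 (quartiles 2 and 11). The E-box letters CACGTG, searched on both strands, occurred in 2 of the 17 promoters, both of Fkbp6, and in 7.14% of all promoters. The Fkbp6 windows overlap and share these letters, so the same sites of 1 gene are counted in both. The letters TATAAA, on both strands, occurred in 4 of 17 (Sgo2a, Slc22a13, Defb48 and the noncoding gene Gm41934) against 13.6% of all, and GCGGGA, a core of E2F sites, in 1 of 17 (Sgo2a) against 20.2%. A match describes these letters in this window only. Start sites on chromosome 18 were not used here. On the other 18 autosomes 82.1% of protein-coding genes have a listed start, from 54.5% on chromosome 15 and 69.5% on chromosome 8 to 87.5% on chromosome 13, and 18 stretches of 10 or more neighbouring protein-coding genes have none, so distances there run to a farther gene.

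The domains that held a start were of very different widths, from 0.3 kb at Eef1a1 to 17.1 kb at Gm4316. Eef1a1 had a domain of 0.3 kb (chr9:78481501-78481800), 606 kb from the domain to its left and 242.9 kb from the one to its right, and its promoter window reached past the domain's edge. Sgo2a had a domain of 0.750 kb (chr1:57984751-57985500) with its start 0.160 kb from the right edge. The domain at Fkbp6 (chr5:135348751-135352200) was 3.45 kb wide, held both listed starts and reached into Trim50, an E3 ubiquitin ligase gene. Hsbp1 lay at the right end of a domain of 16.4 kb (chr8:119328751-119345100), which extended 15.8 kb upstream of its start. Slc22a13 had its start inside a domain of 15.3 kb (chr9:119202601-119217900) that covered 6.505 kb, or 40.3%, of the gene. Other protein-coding genes with a start in an isolated domain were Acss2, an acetyl-CoA synthetase gene, Angptl6, Trim80, Gm5136 and 1700029P11Rik. The remaining 5 were the noncoding genes Gm41934, Gm31731, Gm4316, Gm46252 and LOC115487747.

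Few isolated domains held a listed start, and their median distance to one was shorter than that of other domains. A listed start lay inside 16 of 707 isolated domains on the 18 autosomes (2.26%, exact 95% binomial interval 1.30 to 3.65%) and inside 431 of 24234 others (1.78%, 1.62 to 1.95%), so the intervals overlap. Within 5 kb of a start lay 100 isolated domains (14.1%, 11.7 to 16.9%) and 1862 others (7.68%, 7.35 to 8.03%). The median distance to the nearest start was 22.3 kb for isolated domains and 64.1 kb for the others. Isolated domains also lay in 1 Mb windows with more protein-coding genes, at a median of 9 against 4. The part of local gene content in the nearness to starts was not tested. Without the 28 isolated and 1644 other domains in the stretches that lack listed starts, an alternative chosen after seeing the data, 14.7% and 8.15% lay within 5 kb of a start and the medians were 21.4 and 57.5 kb. Intervals here and below cover counting error only. Domains of 1 list are not replicates and the members were picked from the same list, so no test was run and differences are given as sizes.

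Isolated domains were somewhat narrower than the rest. Their median width was 2.40 kb (quartiles 1.35 and 3.90 kb) and that of the 24984 other autosomal domains was 2.85 kb (quartiles 1.80 and 4.65 kb). Domains under 1 kb made up 13.9% of the isolated ones (104 of 746) and 7.80% of the others (1949). Those of 10 kb or more made up 4.02% (30) and 6.68% (1670). The isolated median was lower on 14 of 19 autosomes, equal on 2 (chromosomes 3 and 13) and higher on 3 (chromosomes 1, 8 and 14). All but 1 of the listed domains have boundaries on a 150-base grid, so the difference between the medians is 3 grid steps. In all, isolated domains held 2510 kb of sequence against 99373 kb in the others.

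**Figure D1:**
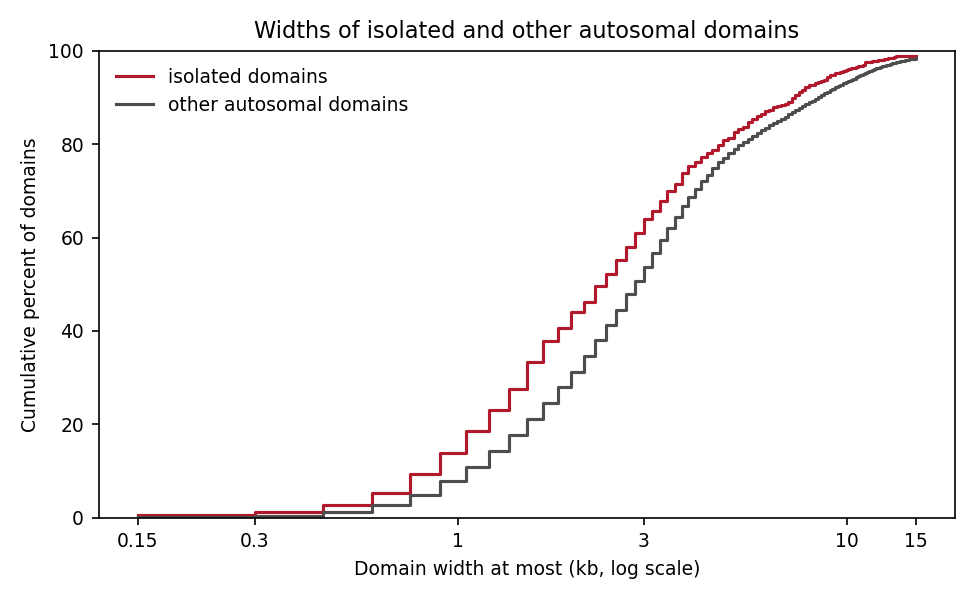
Cumulative percent of domains (y) up to each width in kb (x, log scale, shown to 15 kb) for the 746 isolated and the 24984 other autosomal domains. The isolated curve lies to the left at small widths, with medians of 2.40 and 2.85 kb.

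The widest isolated domains were 61.8 and 50.3 kb, far beyond the next at 18.3 kb. The first (chr5:124647901-124709700) lay wholly inside Atp6v0a2, a subunit of the vacuolar proton pump, and covered 64.8% of the gene. The second (chr5:137212951-137263200) overlapped no protein-coding gene and ended 0.405 kb from Muc3a, a mucin gene. The domain of 18.3 kb on chromosome 4 overlapped none either and lay 2.10 kb from Mib2, a ubiquitin ligase gene. Domains of 17.1 kb lay on chromosome 8, at 4.88 kb from the dipeptidase gene Dpep1 and over the noncoding gene Gm4316, and on chromosome 17, at 47.8 kb from Trerf1. The rest of the 10 widest were those at Hsbp1 and Slc22a13, domains inside Slc20a2 (15.9 kb), a phosphate transporter gene, and inside Usp24 (15.0 kb), a deubiquitinase gene, and a domain of 13.4 kb at 43.2 kb from Tbca. At the other end, 4 isolated domains were a single grid step of 0.15 kb, inside Dennd3 and Aldh7a1 and near Edem2 and Olfr463, genes chosen after their values were seen.

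The smaller of each domain's gaps had a median of 264.9 kb (quartiles 227.1 and 342.1 kb), and 37 domains had 500 kb or more free of domains on both sides. The most isolated was a domain of 9.60 kb on chromosome 2 (chr2:32113951-32123550) with gaps of 1163 and 1537 kb and Plpp7 3.14 kb away. Next came a domain of 1.05 kb inside Nlrp3, the inflammasome sensor gene (smaller gap 841.8 kb), one of 2.25 kb inside Iqch (796.2 kb) and one of 0.900 kb inside Ntn1, the netrin gene (773.7 kb). The neighbour of the last, also at 773.7 kb, was a domain of 1.50 kb lying 3.477 kb from Vamp2, a synaptic vesicle gene. Domains inside Bcas3 (733.4 kb), Atp2b2, a calcium pump gene (728.3 kb), and Grk4, a receptor kinase gene (690.2 kb), and domains near Gm14305 (765 kb) and Ube4b (742.4 kb) completed the 10. Of the 10, 4 lay on chromosome 11, which held 6.84% of all isolated domains. It also had the fewest domains per Mb (7.63), which favours wide gaps, so the count is a description only.

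Of the domains nearest the 200 kb limit, the 3 just inside had a smaller gap of 200.3 kb and lay inside Zfp804a (2.85 kb wide), the ephrin receptor gene Epha5 (5.55 kb) and Entpd1 (1.05 kb), an ectonucleotidase gene. The 3 just outside had 199.7 kb (1.80 kb wide, inside Cpeb1) and, in both other cases, 199.5 kb, one of 2.85 kb at 663.2 kb from Nedd1 and one of 1.35 kb at 14.2 kb from H2-D1, a class I histocompatibility gene.

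Isolated domains overlapped protein-coding gene bodies more than 2 times as often as other domains. Of 746, 334 (44.8%, exact 95% binomial interval 41.2 to 48.4%) shared at least 1 base with a protein-coding gene, against 4960 of 24984 others (19.9%, 19.4 to 20.4%). The share was higher for isolated domains on 19 of 19 autosomes, by 12.6 percentage points on chromosome 1 to 39.3 on chromosome 16. Most of these domains lay wholly inside a gene, 309 of the isolated (41.4%) and 4538 of the others (18.2%). A gene boundary was crossed by 25 (3.35%) and 422 (1.69%). Another 71 isolated domains (9.52%) overlapped a long noncoding RNA gene and no protein-coding gene, against 7.66% of the others. No annotated gene was touched by 330 isolated domains (44.2%), against 68.3% of the others.

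**Figure D2:**
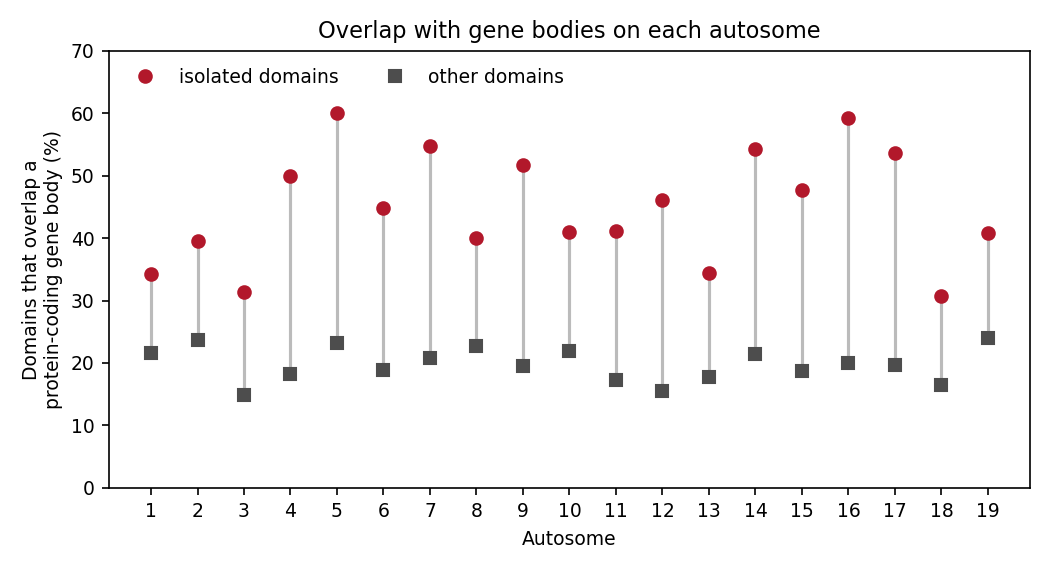
Percent of domains that overlap a protein-coding gene body (y) on each autosome (x), for isolated domains (circles) and other domains (squares), joined by a grey line. Circles lie above squares on 19 of 19 autosomes, from 30.8% on chromosome 18 to 60% on chromosome 5.

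The surroundings of isolated domains were also richer in genes. Within 200 kb on either side, 59.9% of bases lay in protein-coding gene bodies, against 27.9% around other domains. The median 1 Mb window with an isolated domain held 9 protein-coding genes, and that with another domain held 4. Only 2.95% of isolated domains were in a window with no such gene, against 16.4% of the others. Set beside their own flanks, isolated domains were found in gene bodies less than the sequence around them: 39.9% of their bases were in gene bodies, which is 0.666 of the flank share. The figure for other domains was 17.2% of bases and a ratio of 0.616. Their flanks can hold neighbouring domains, while those of isolated domains hold none by the rule, so the 2 ratios are not like measures. By the gap to the nearer neighbour, the ratio rose from 0.409 under 5 kb to 0.818 at 50 to 100 kb. It was 0.787 at 100 to 200 kb, 0.684 at 200 to 300 kb and 0.488 at 500 kb or more. In 274 of 746 isolated domains (36.7%) the share inside genes was above that of the domain's own flanks. The same held for 4019 of 24984 other domains (16.1%). The part of local gene content in the higher overlap was not tested.

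**Figure D3:**
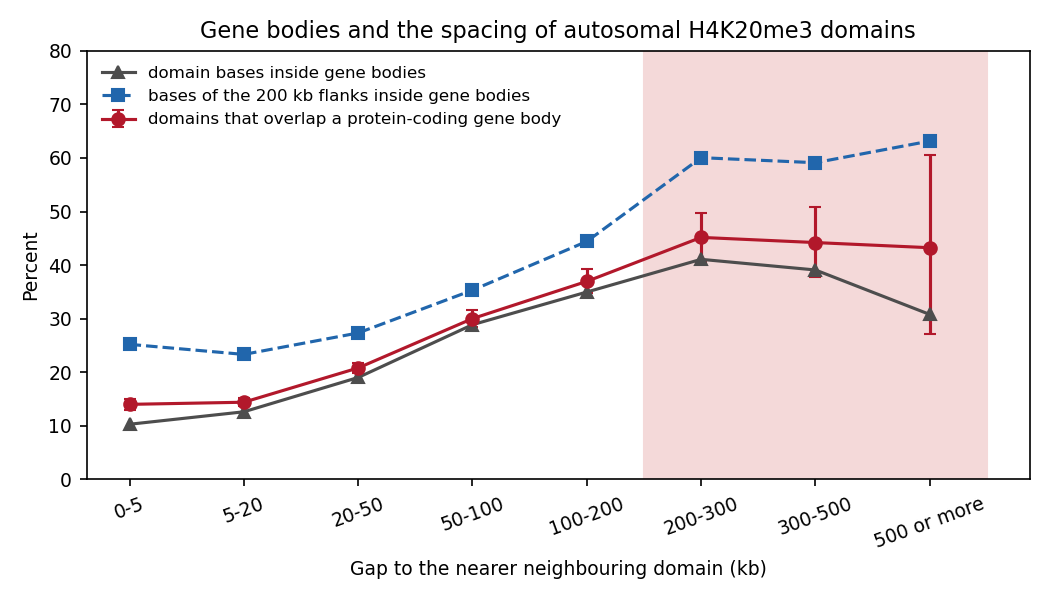
Percent (y) of domains that overlap a protein-coding gene body (circles, bars are exact 95% binomial intervals), of domain bases in gene bodies (triangles) and of bases of the 200 kb flanks in gene bodies (squares), by the gap to the nearer neighbour in kb (x). Overlap goes from 14.0% under 5 kb to 45.2% at 200 to 300 kb; shading marks the isolated domains.

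The overlap with genes went up with spacing below the limit and not beyond it. It was 14.0% for domains with a neighbour under 5 kb away, 20.8% at 20 to 50 kb, 30.02% at 50 to 100 kb and 37.0% at 100 to 200 kb. Among isolated domains it was 45.2% at 200 to 300 kb (476 domains), 44.2% at 300 to 500 kb (233) and 43.2% at 500 kb or more (37). The flanks held 25.2% gene bodies in the closest class, 44.4% at 100 to 200 kb and 63.1% in the widest. Median width went from 3.15 kb in the closest class to 2.55 kb at 100 to 200 kb and 2.25 kb at 200 to 300 kb.

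In windows grouped by gene number, isolated domains overlapped genes more often than other domains in each class, and in each class their flanks also held more gene bodies. With 1 to 4 protein-coding genes in the window the share was 47.4% of 196 isolated domains and 20.5% of 9003 others. With 5 to 9 genes it was 48.6% and 24.5%, with 10 to 19 genes 38.8% and 27.7%, and with 20 or more 46.9% and 23.6%. In windows assigned no gene by its midpoint, 8 of 22 isolated domains lay in a gene (36.4%, 17.2 to 59.3%) against 2.40% of 4091 others. There 48.4% of the isolated domains' bases lay in gene bodies, more than in their flanks (36.4%). In each other class the isolated domains' bases lay in gene bodies less than their flanks did. The flanks were 55.3% gene bodies for isolated and 26.8% for other domains with 1 to 4 genes, 60.4% and 36.6% with 5 to 9, 61.7% and 39.6% with 10 to 19, 67.2% and 34.9% with 20 or more, and 36.4% and 3.49% with none, so windows of like gene number were not alike in gene content. Weighted to the gene numbers around isolated domains, the others stood at 23.6%.

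**Figure D4:**
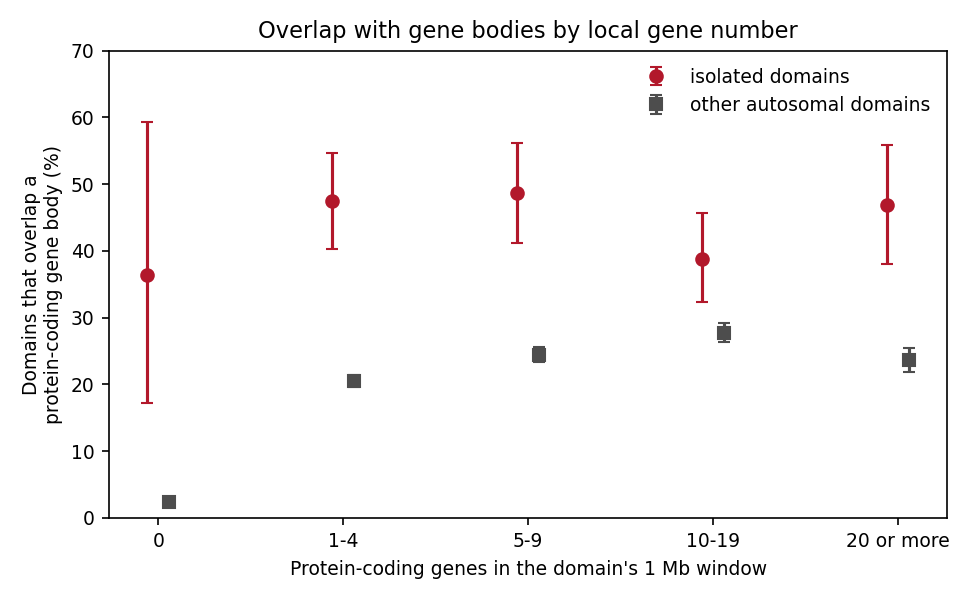
Percent of domains that overlap a protein-coding gene body (y, exact 95% binomial intervals) by the number of protein-coding genes in the domain's 1 Mb window (x), for isolated (circles) and other (squares) domains. Isolated domains are higher in each of the 5 classes, with the smallest distance at 10 to 19 genes (38.8% and 27.7%).

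The nearest protein-coding gene lay at a median of 2.76 kb from an isolated domain and 50.0 kb from the others, with overlap counted as 0. Among domains outside protein-coding genes the medians were 18.97 and 99.3 kb. Within 10 kb of such a gene, overlap included, were 464 isolated domains (62.2%) and 30.8% of the others. More than 100 kb away were 68 (9.12%) and 40.0%. The isolated median was lower on 19 of 19 autosomes, and it ranged from 0 on chromosomes 5, 7, 9, 14, 16 and 17 to 25.5 kb on chromosome 3. The part of local gene content in these distances was not tested.

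Inside genes, isolated domains were found along the whole body. For 248 isolated domains wholly inside 1 protein-coding gene of known strand, the median position was 45.2% of the way from the start to the end, and for 3434 others it was 50.8%. With the gene cut into 5 equal parts from the start, the parts held 45, 67, 46, 56 and 34 isolated domains. The second part held 27.0% (21.6 to 33.0%), against 21.6% (20.2 to 23.0%) of the others. The part next to the gene's end held 13.7% (9.68 to 18.6%), against 17.97% (16.7 to 19.3%) of the others. In each of the 5 parts the intervals of isolated and other domains overlap. Only 11 isolated domains (4.44%) were within 5 kb of the gene's start, against 4.92%. The host genes had a median length of 198.2 and 208.2 kb.

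In all, 329 of 20560 autosomal protein-coding genes met an isolated domain (1.6%), where 13.9% met any autosomal domain. For 279 of the 329 (84.8%) every domain they met was isolated. The rule itself favours this, since no other domain lies within 200 kb of an isolated one. The 329 genes were long, with a median of 163.4 kb. It was 17.6 kb for all protein-coding genes and 75.3 kb for genes that met only other domains. An isolated domain was met by 0.192% of genes under 10 kb, 1.62% of those of 30 to 100 kb and 19.7% of those of 300 kb or more. Any autosomal domain was met by 2.93%, 19.5% and 86.7% of the same classes, so overlap with any domain also went up with length. The part of a gene covered by isolated domains was small, with a median of 1.41%. The genes with the most isolated domains, chosen after their values were seen, were the splicing regulator gene Rbfox1 (3 of its 4 domains) and the axon guidance receptor gene Robo2 (3 of 8). Another 8 genes had 2, among them Shank2, Rora, Cacna2d3, Hdac9 and Bbs9, each with no other domain.

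**Figure D5:**
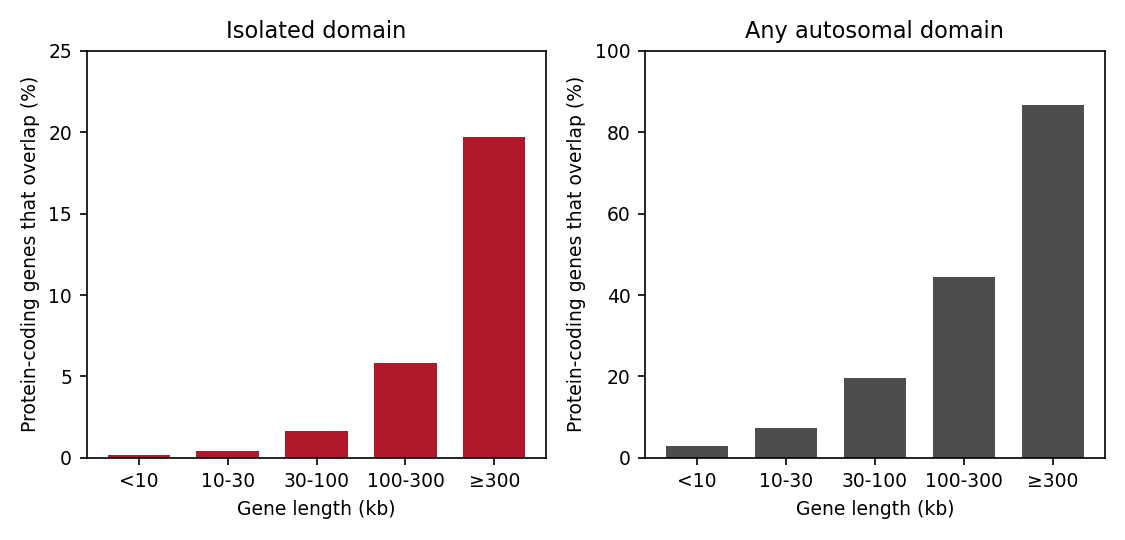
Percent of protein-coding autosomal genes that overlap an isolated domain (left) and any autosomal domain (right), by gene length in kb; the y axes differ in range. Overlap with an isolated domain goes from 0.192% under 10 kb to 19.7% at 300 kb or more.

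Only 30 genes had 10% or more of their body in an isolated domain, and 3 had 50% or more. The small genes 1700029P11Rik (1.02 kb) and Gm5136 (1.12 kb) had 100% and 90.4% covered, and Atp6v0a2, with 95.4 kb, had 64.8%. Another proton pump subunit, Atp6v1e1 (chr6:120795244-120822698), had 44.3% covered by a domain of 12.2 kb, which also held the pseudogene Gm19245. Aen, an apoptosis nuclease gene, had 48.1% covered and Slc22a13 40.3%. Nhlrc1, which encodes the ubiquitin ligase malin, had 39.0%, Plac8l1 31.6%, the phospholipase gene Plcd3 28.6% and Hirip3, which encodes a HIRA-interacting protein, 22.5%.

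Over 13 lists of gene families and regulators, 7 genes met an isolated domain. The share by list went from 0 to 3.13%, and was 0.0907% of 1103 olfactory receptor and 0.959% of 417 zinc finger genes. An isolated domain was met by 1.6% of all protein-coding genes and 0.192% of those under 10 kb. Many of the listed genes are short, with a median length of 0.951 kb for olfactory receptor, 0.960 kb for vomeronasal receptor and 0.502 kb for histone genes, and the shorter lists hold too few genes to read a count of 0 or 1 against these shares. No isolated domain met any of 351 vomeronasal receptor genes, 99 cytochrome P450 genes or 57 clustered protocadherins. Of these, 49 (14.0%), 37 (37.4%) and 13 (22.8%) met some autosomal domain, beside 13.9% of all protein-coding genes. The P450 genes had a median length of 22.5 kb and the protocadherins 90.3 kb. Some domain was met by 7.41% of all protein-coding genes of 10 to 30 kb and 19.5% of those of 30 to 100 kb. The part of gene length in these family shares was not tested. Of 1103 olfactory receptor genes, Olfr1358 alone met an isolated domain (5.84% covered). Among 417 zinc finger genes chosen by symbol, 4 did: Zfp106 (5.26%), Zfp804a (1.36%), Zfp949 (1.30%) and Zfp385b (0.590%). Some autosomal domain was met by 69 of the 417 (16.5%). None met an isolated domain among 87 ribosomal protein, 75 histone, 39 Hox, 34 pluripotency, 50 developmental regulator and 27 heterochromatin factor genes.

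Among 32 germline genes, 13 met an autosomal domain (40.6%, beside 13.9% of all protein-coding genes) and 1 of these, Dmc1, met an isolated one (3.13%, beside 1.6%). The germline genes had a median length of 38.1 kb, against 17.6 kb for all protein-coding genes. Some domain was met by 19.5% of genes of 30 to 100 kb. The part of gene length in such shares was not tested. Dmc1 encodes the meiotic recombinase. Its domain of 4.5 kb (chr15:79581601-79586100) lay inside the gene and covered 10.3% of it. The imprinted list also holds noncoding genes, so the protein-coding shares are not a like background for it. Among 44 imprinted genes, with a median length of 34.5 kb, 11 met a domain (25%) and 1 an isolated one (2.27%). Gnas, an imprinted locus that encodes a G protein alpha subunit, met that domain, of 2.10 kb (chr2:174315301-174317400, 3.36% covered).

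Annotated pseudogenes were overlapped by 17 isolated domains (2.28%) and 3.70% of the others. A whole pseudogene was held by 10 isolated domains (1.34%) and by 1.32% of the others, and these included copies named for ferritin light chain (Ftl2-ps), Itpa (Itpa-ps2) and Nutf2 (Nutf2-ps2). The domain over Ftl2-ps (chr4:125503951-125506500), inside the glutamate receptor gene Grik3, also held Mir692-2, the only hairpin of 919 in the RefSeq miRNA table on these 18 autosomes to meet an isolated domain. Its mature sequence is shown with the seed, bases 2 to 8, in capitals.
mmu-miR-692: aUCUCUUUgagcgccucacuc

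Long noncoding RNA genes were overlapped by 83 isolated domains (11.1%) and 8.54% of the others. Those with the most covered were Gm4316 (6.21 kb, 100%), Gm41177 (92.1% of 13.0 kb), Gm12273 (76.1%) and Gm40109 (68.4%), named after their values were seen.

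Isolated domains were spread over all autosomes in unequal number. Chromosome 2 held 76, chromosome 9 held 58 and chromosome 11 held 51, while chromosome 8 held 20. They made up 5.92% of the domains on chromosome 19, 5.62% on chromosome 11 and 5.53% on chromosome 9, but 1.36% on chromosome 8 and 1.48% on chromosome 1. The autosomes with the fewest domains per Mb, 11 (7.63) and 19 (7.82), thus had the highest isolated shares, which the rule itself favours.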

How the data were processed

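The study measured H4K20me3 by ChIP-seq in 12 libraries. Per the file name, the authors called domains with RSEG; its settings and input libraries are not stated there or in the labels. Per the submitters' processing notes, which name no roles, the tools listed are bedtools, deepTools, SAMtools 1.1 and Bowtie2 2.3.4.1, and the builds GRCm38, mm10, mm9 and dm6. The deposited list has a chromosome, start and end for each domain, so no signal could be scaled or filtered.

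Gaps were counted in bases between neighbouring domains of the whole list. Genes came from the RefSeq table of GRCm38.p6: 46714 autosomal genes, 20560 of them protein-coding, without 328 placed in the first 3 Mb. Starts and strand came from the RefSeq promoter table. Exons, introns and UTRs were not used here. Overlap meant at least 1 shared base. Flanks were 200 kb, cut at 3 Mb and at the chromosome's last gene or domain but not at neighbouring domains. Genes and domains were put in 1 Mb windows by their midpoint. Zinc finger and other families were taken by symbol, kinases named Rps6k left out.

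Named are the 10 widest and 10 most isolated domains, the 10 genes with the largest covered share, list members that met an isolated domain (up to 4 per family) and the 3 domains on each side of the limit. The domains and lists were chosen with earlier results of these data known. Interval functions were tested on 20 simulated sets against direct counting. Alternatives covered the gap, merging of domains, the gene set, the overlap and single autosomes. Tools were matplotlib 3.10.9, scipy 1.17.1, pandas 2.3.3, numpy 2.4.6 and Python 3.11.15.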

Additional observations from a re-analysis of the deposited data

How the results depend on the processing

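The order of isolated and other domains was the same in every alternative that gave both values over all the autosomes used. Isolated domains had lower median width in 6 of 6, higher overlap with genes in 9 of 9 and lower median distance in 8 of 8. Gaps taken only to domains from 3 Mb on gave the same 746 domains, and including domains with 1 neighbour gave 749. Those alternatives could therefore hardly differ from the main result. A gap of 100 kb gave 2575 domains, 39.2% overlap (others 18.5%), a median distance of 7.20 kb (others 55.5 kb) and 21 list genes; a gap of 300 kb gave 270 domains, 3 list genes and 47.6 kb for the others. Merging domains closer than 5 kb gave the others a median width of 3.00 kb and 20.7% overlap. Without chromosome 2, 3 list genes met an isolated domain. With all annotated genes, overlap was 55.8% for isolated and 31.7% for other domains and the median distances 0 and 9.67 kb. Over domains that overlap no protein-coding gene, the distances were 18.97 and 99.3 kb. The others stood at 18.7% with at least 50% of the domain inside a gene, 21.0% with genes extended by 1 kb and 23.6% when weighted by gene number. On single autosomes the ranges were 20 to 76 isolated domains, 0 to 4 list genes, widths of 1.80 to 3.30 kb (others 2.55 to 3.15 kb), overlap of 30.8 to 60% (others 14.9 to 24.0%) and distances of 0 to 25.5 kb (others 14.8 to 114.3 kb). Leaving out the stretches without listed starts moved 2 start-site values, both of the other domains (8.15% within 5 kb, median 57.5 kb). The cause of these shifts was not tested. No paired analysis was possible because the list names no library. Depth is unknown, so whether weaker domains were missed in the gaps was not tested.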

Other observations

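Of 746 isolated domains, 379 had no isolated domain as a direct neighbour and the other 367 formed runs of 2 to 8. The rule itself favours runs, since the neighbour of an isolated domain already has one gap past the limit, so their number is given as a description only. The longest run lay on chromosome 2 from 117848851 to 121387800, where 8 isolated domains held 35.1 kb of 3539 kb. It crossed 80 protein-coding genes, and domains lay inside or over Chp1, Fsip1, Pla2g4e, Ttbk2 and Zfp106. A run of 6 on chromosome 6, from 113039101 to 115829850, crossed 46 such genes and included Atg7, an autophagy gene, and Atp2b2. Another run of 6, on chromosome 4, included Usp24 and Ndc1, a nuclear pore gene. These runs were chosen after their values were seen.

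A few isolated domains lay far from any protein-coding gene. Only 10 (1.34%) were more than 500 kb from one, against 13.0% of other domains. The farthest, of 0.600 kb on chromosome 18, was 2250 kb from Pik3c3. One of 1.95 kb on chromosome 14 was 1044 kb from Slitrk5, a neuronal adhesion gene.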
